A study of Mus musculus with 3 samples.

Results

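A small set of Peyer's patch cell barcodes carried RNA of 2 programs at once. The first is lysozyme and complement C1q, which mark the phagocytes of the follicle dome. The second is Ccr7, the chemokine receptor of mature dendritic cells. These barcodes were chosen by their own RNA. A cell barcode was kept with at least 500 genes and at most 10% mitochondrial UMIs (unique molecular identifiers, each standing for 1 captured RNA molecule). It entered the lysozyme-high gate with at least 80 UMIs of Lyz1, C1qa, C1qb and C1qc together per 10,000 UMIs, fewer than 4 UMIs of Mki67, Top2a, Birc5 and Ube2c together and fewer than 3 of Cd79a. Gate cells with at least 4 Ccr7 UMIs are called members here. The rule found 375 members among 15526 barcodes, of which 15434 were kept. The R848 library held 268 of them, the CpG library 88 and the Control library 19. Of these, 65, 66 and 11 were called doublets, barcodes that may hold 2 cells. Whether a member is 1 cell or 2 was not tested beyond these calls.

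The study profiled CD11c+ cells of mouse Peyer's patches by 10x Chromium 3′ single-cell RNA sequencing, with 1 library for each of 3 groups. Each library pooled 12 female C57BL/6Rj mice, with 88 patches for Control, 85 for CpG and 90 for R848. The R848 group received 10 µg of R848, a synthetic agonist of Toll-like receptor 7 (TLR7), and the CpG group 125 µg of CpG DNA, an agonist of TLR9. Both agents were given by intraperitoneal injection in sterile PBS and patches were taken after 9 h; the Control mice were untreated, and no injection of the vehicle is stated for them. Patches were digested with collagenase II and DNase I, CD11c+ cells were enriched on magnetic beads, and conventional dendritic cells of both types, lysozyme-expressing dendritic cells (LysoDC) and macrophages were then sorted alive. With 1 library per group, treatment and library cannot be told apart. No test between groups was possible. All intervals are exact 95% intervals that cover counting error only.

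Peyer's patches are lymphoid tissue of the small intestine, covered by an epithelium whose M cells pass luminal material inward. LysoDC and lysozyme-expressing macrophages sit beneath this epithelium, derive from monocytes, and take up particles and dying cells. Mature dendritic cells switch on CCR7, which draws them along CCL19 and CCL21 into the T cell zone, together with the actin-bundling protein fascin (Fscn1). The cytokines IL-12 and IL-23 share the p40 subunit encoded by Il12b. TLR7 senses single-stranded RNA and TLR9 unmethylated CpG DNA, both in endosomes.

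Members made up 5.25% of kept cells in R848 (interval 4.65 to 5.90), 1.75% in CpG (1.41 to 2.15) and 0.358% in Control (0.216 to 0.559). As shares of the gate they were 13.5% of 1985 cells, 6.72% of 1309 and 0.933% of 2036. Without the cells called doublets, as described with the depth values, they were 4.14%, 0.457% and 0.158% of kept cells. The share was highest in R848 and lowest in Control in each case. These shares follow a sort and a UMI threshold, so they describe the sorted cells. The 3 libraries held 5344, 5049 and 5133 barcodes for Control, CpG and R848, with 43537067, 43767864 and 46556726 UMIs. Pairs of libraries shared 33 to 42 barcodes, and 0 barcodes were members in both libraries of a pair.

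Each library gave 2 comparison populations. Gate cells with 0 Ccr7 UMIs, called Ccr7-negative gate cells, numbered 1210 in R848, 738 in CpG and 1920 in Control. Mature dendritic cells, with a gate sum under 40 and at least 15 UMIs of Ccr7 and Fscn1 per 10,000, numbered 2206, 2818 and 338. Levels are in CPM, counts per 1,000,000 UMIs summed over a population. A gene was compared where it reached 20 CPM in either population, and was called higher or lower where the ratio reached 2-fold and its interval left out 1. A gene was called above both populations where it was at least 1.5-fold over the higher of them with an interval leaving out 1.

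Doublet calls were spread unevenly over the members of the 3 libraries. A droplet holding 1 phagocyte and 1 mature dendritic cell could meet the rule, so doublets were scored with Scrublet, and the highest-scoring cells of each library were called at 0.8% per 1000 barcodes. Calls marked 65 of 268 R848 members (24.3%, interval 19.2 to 29.8), 66 of 88 CpG members (75.0%) and 11 of 19 Control members (57.9%). They marked 1.65%, 1.63% and 5.42% of Ccr7-negative gate cells and 1.86%, 2.38% and 2.07% of mature dendritic cells in R848, CpG and Control. The members left uncalled numbered 203 in R848, 22 in CpG and 8 in Control. Values without the called cells stand beside the main ones, called "without doublet calls". Scrublet scores a cell by its likeness to summed pairs of cells from the same counts. Leaving out called members thus tends to leave out those with levels between the populations, so these values are no independent check. Median depth was 12087.5 UMIs in R848 members, 12204.5 in Ccr7-negative gate cells and 5376.5 in mature dendritic cells. In CpG it was 14999, 12649.5 and 5695. R848 members thus had the depth of gate cells, while CpG members exceeded either population.

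The rule's own genes are given as a description. R848 members held 4 to 67 Ccr7 UMIs with a median of 12, CpG members 4 to 91 with a median of 14, and Control members 4 to 45 with a median of 8. The gate sum per 10,000 UMIs ran from 84.7 to 584 in R848 with a median of 209.9, against a median of 309 in Ccr7-negative gate cells. Summed over cells, Lyz1 stood at 9935 CPM in R848 members, 12049 in Ccr7-negative gate cells and 191.5 in mature dendritic cells. C1qa stood at 4286, 7708 and 109.7 CPM in the same order, Ccr7 at 1189.7, 0 and 3675, and Fscn1 at 1269, 180.3 and 3846.

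**Figure D1:**
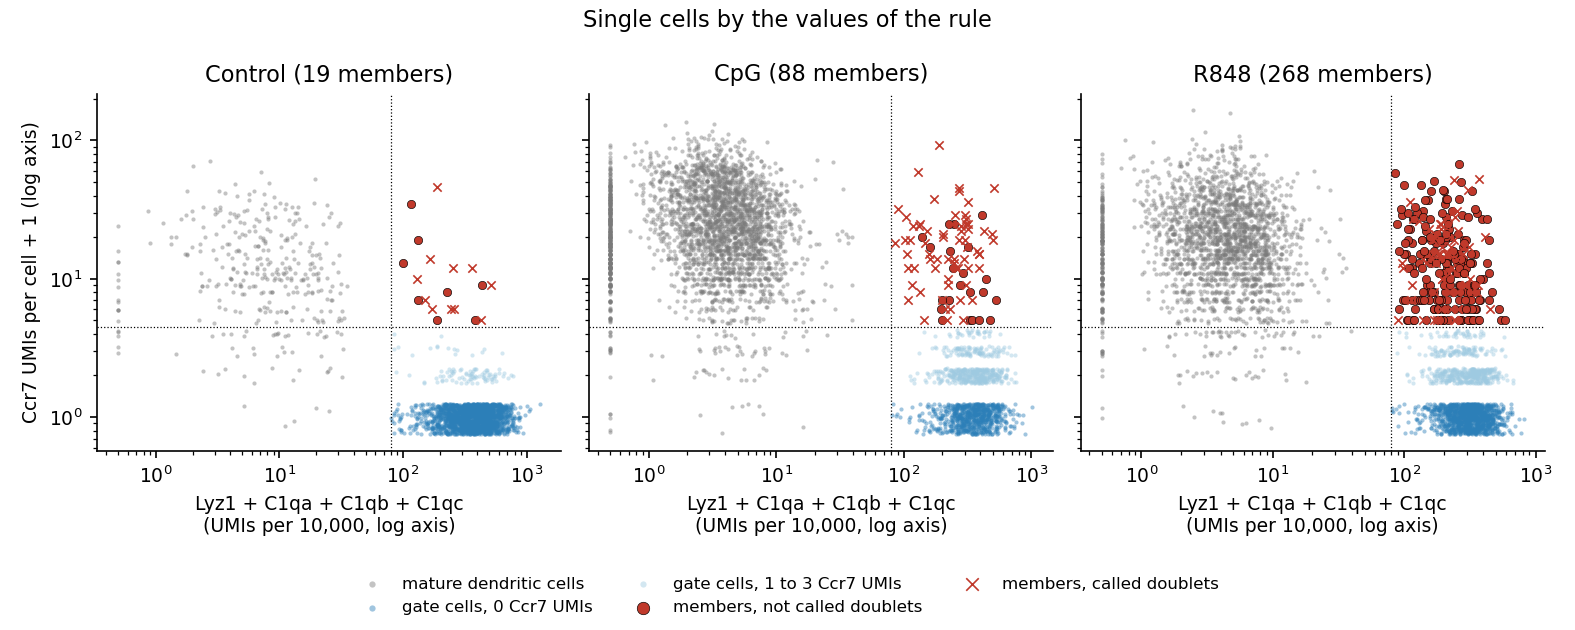
Each point is a cell of the Control, CpG or R848 library, by its summed Lyz1, C1qa, C1qb and C1qc UMIs per 10,000 (log axis; cells at 0 are drawn at the left edge) and its Ccr7 UMIs plus 1 (log axis, jittered for cells that are no members). Dotted lines mark the thresholds of the rule; R848 holds 268 members, of which 65 are called doublets (crosses), and CpG 88, of which 66 are.

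Markers of both programs that the rule did not use were checked first. In R848 members their summed levels lay between the populations. Summed over 20 such genes, the lysozyme-high markers stood at 42168 CPM in R848 members, 66373 in Ccr7-negative gate cells and 3304 in mature dendritic cells. The 29 mature dendritic cell markers stood at 10673, 2866 and 27401 CPM. Il12b, Ido1 and Il4i1, given as further markers of these cells, were all higher in R848 members than in Ccr7-negative gate cells. The 29 genes include these 3, and each of the 3 stood higher in members than in either population. Il12b alone gave 1203 of the 10673 CPM. In CpG members Il12b stood at 80.8 CPM against 3.66 in Ccr7-negative gate cells, a ratio of 22.04 beside 13.6 in R848. Mature dendritic cells of the CpG library stood at 194 CPM. The CpG ratio rests on few cells, as 13 of 88 members and 17 of 738 Ccr7-negative gate cells had Il12b. Only 3 of these members held 10 or more Il12b UMIs. Ido1 stood at 19.8 CPM in CpG members, too low to be compared with Ccr7-negative gate cells.

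Among genes of at least 50 CPM, Il12b had the largest ratio of R848 members over both populations. It stood at 1203 CPM in members (interval 1166 to 1241, from 3975 UMIs), 88.6 in Ccr7-negative gate cells, 118 in mature dendritic cells and 191.5 in gate cells with 1 to 3 Ccr7 UMIs. The ratio to the higher population was 10.2 (9.61 to 10.8). Without doublet calls the members' level was 1612 CPM, while the called members stood at 164. Single members ranged from 0 to 157 Il12b UMIs with a median of 6. At least 4 Il12b UMIs were found in 152 of 268 members (56.7%), in 96 of 1210 Ccr7-negative gate cells (7.93%) and in 33 of 2206 mature dendritic cells (1.5%). Among members without doublet calls the share was 146 of 203 (71.9%), against 6 of 65 called ones (9.23%).

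Shares of cells with Il12b were set beside a population with little of it and compared at equal depth. Resting dendritic cells, with low Ccr7 and Fscn1 and a median of 7588 UMIs, served for this. At least 1 Il12b UMI was found in 76.1% of R848 members, 35.2% of Ccr7-negative gate cells, 6.03% of mature and 1.09% of resting dendritic cells. With each cell thinned to 4000 UMIs the shares were 65.0%, 18.7%, 5.30% and 0.794%; 14 members and 582 mature dendritic cells were too shallow and were left out. Members had the highest share with or without thinning.

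Il12b was also high in a subset of mature dendritic cells. Leiden clustering split the R848 mature dendritic cells into 10 clusters of at least 20 cells, and 1 of them, with 138 cells, stood at 1810 CPM for Il12b. The other 9 clusters did not pass 46.4 CPM. That cluster had 110.2 CPM of C1qa, 19.7 of Ido1 and 18.4 of Igfbp4. It also had 189 CPM of Kctd14, 292 of Il6 and 48.5 of Tnf, each the highest level among the 10 clusters. R848 members stood at 356, 60.5 and 51.2 CPM for these genes, so this pattern was not particular to members. For Il12b, the highest of 9 clusters of Ccr7-negative gate cells stood at 307 CPM. R848 members thus exceeded every cluster of gate cells for Il12b, but not this cluster of mature dendritic cells.

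Il12b lies at chr11:44400063-44414033 on the plus strand and Tnf, the gene of tumour necrosis factor, at chr17:35199381-35202007 on the minus strand (GRCm38, GENCODE). Both encode cytokines above both populations in R848 members, and their promoters are shown for the motif search over the named genes. The 250 bases before the RefSeq start site (GRCm38.p6) follow, at chr11:44399813-44400062 on the plus strand for Il12b and at chr17:35202008-35202257 on the minus strand for Tnf. Capitals mark GAGGAA on either strand, the core of a site for the myeloid factor PU.1.
Il12b: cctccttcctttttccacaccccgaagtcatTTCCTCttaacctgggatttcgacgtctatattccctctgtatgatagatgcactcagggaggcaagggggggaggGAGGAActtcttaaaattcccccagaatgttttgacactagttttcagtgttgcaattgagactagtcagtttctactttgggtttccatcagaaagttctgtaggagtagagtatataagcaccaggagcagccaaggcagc
Tnf: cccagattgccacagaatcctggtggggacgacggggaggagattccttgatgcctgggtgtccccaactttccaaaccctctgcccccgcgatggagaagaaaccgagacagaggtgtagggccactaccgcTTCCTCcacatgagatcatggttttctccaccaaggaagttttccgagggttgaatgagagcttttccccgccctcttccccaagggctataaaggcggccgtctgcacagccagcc

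Among the 8 of 12 named genes with a promoter in the table, GAGGAA was present in 2, Il12b with 2 matches and Tnf with 1. It was present in 23.3% of all 32851 promoters of this length. The NF-kB consensus was found in the window of Prkca alone and in 7.25% of all promoters. The interferon-stimulated response element, GAAANNGAAA, and the AP-1 site, TGANTCA, were found in 0 of the 8, and in 2.98% and 6.75% of all promoters. These counts describe letters in the window and say nothing of binding.

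In all, 180 of 5449 compared genes were above both populations in R848 members (3.30%) and 32 were below both (0.587%). The median ratio of the 180 genes to the higher population was 1.80, and 90 of them reached 50 CPM in members. For 119 the higher population was the Ccr7-negative gate cells, and for 61 the mature dendritic cells. Without doublet calls 268 of 5495 genes were above both (4.88%), and 178 of the 180 were among them. These counts come from a subset of the same members, chosen with the same counts, and are a description. In CpG members 30 of 5363 genes were above both (0.559%) and 10 below both (0.186%), and 2 genes were above both in CpG and in R848. In Control members, with 190990 UMIs in all, 95 of 5538 were above both (1.72%) and 24 below both (0.433%).

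The genes that follow Il12b by this ratio encode a secreted protein, enzymes, a cytokine and signalling proteins. Igfbp4, a secreted binding protein of insulin-like growth factors (chr11:99041244-99054392, plus strand), stood at 85.1 CPM in R848 members (75.4 to 95.6), 8.82 in Ccr7-negative gate cells and 4.63 in mature dendritic cells. Its ratio to the higher population was 9.65, and its level without doublet calls 117 CPM. Kctd14, a gene with a potassium channel tetramerisation domain (chr7:97451323-97459557, plus strand), stood at 356 CPM in members, 72.4 and 15.1 in the other populations, and 477 without doublet calls. Both genes were also at least 1.5-fold over every cluster of either population, the highest cluster standing at 29.4 CPM for Igfbp4 and at 189 for Kctd14. For Kctd14 this was the Il12b-rich cluster of mature dendritic cells.

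Prkca, which encodes protein kinase C alpha, stood at 57.2 CPM in members against 9.69 in Ccr7-negative gate cells and 2.88 in mature dendritic cells. Enpp2, which encodes autotaxin, the enzyme that makes lysophosphatidic acid, stood at 78.7 against 14.8 and 2.20 CPM. Snrnp25, a protein of the minor spliceosome, stood at 327 against 72.8 and 40.0 CPM. Bcl2l11, which encodes the pro-apoptotic protein BIM, stood at 188 against 52.7 and 43.8 CPM. These 4 genes were also at least 1.5-fold over every cluster of either population.

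Tnf stood at 51.2 CPM in members, 5.79 in Ccr7-negative gate cells and 9.10 in mature dendritic cells. Stap1, a signalling adaptor, stood at 91.7 against 18.2 and 11.1 CPM, and at 98.6 CPM in resting dendritic cells. Ccdc173, a coiled-coil protein gene, stood at 68.1 against 16.2 and 1.67 CPM, and Sema6d, a semaphorin, at 73.3 against 15.4 and 19.0. For each of these 4 genes the level without doublet calls was higher still, from 65.4 CPM for Tnf to 117 for Stap1. Of these 4 genes, Ccdc173 alone was at least 1.5-fold over every cluster of either population. The highest cluster stood at 64.3 CPM for Stap1 and 53.1 for Sema6d. The margin of Tnf was small, as the Il12b-rich cluster of mature dendritic cells stood at 48.5 CPM.

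**Figure D2:**
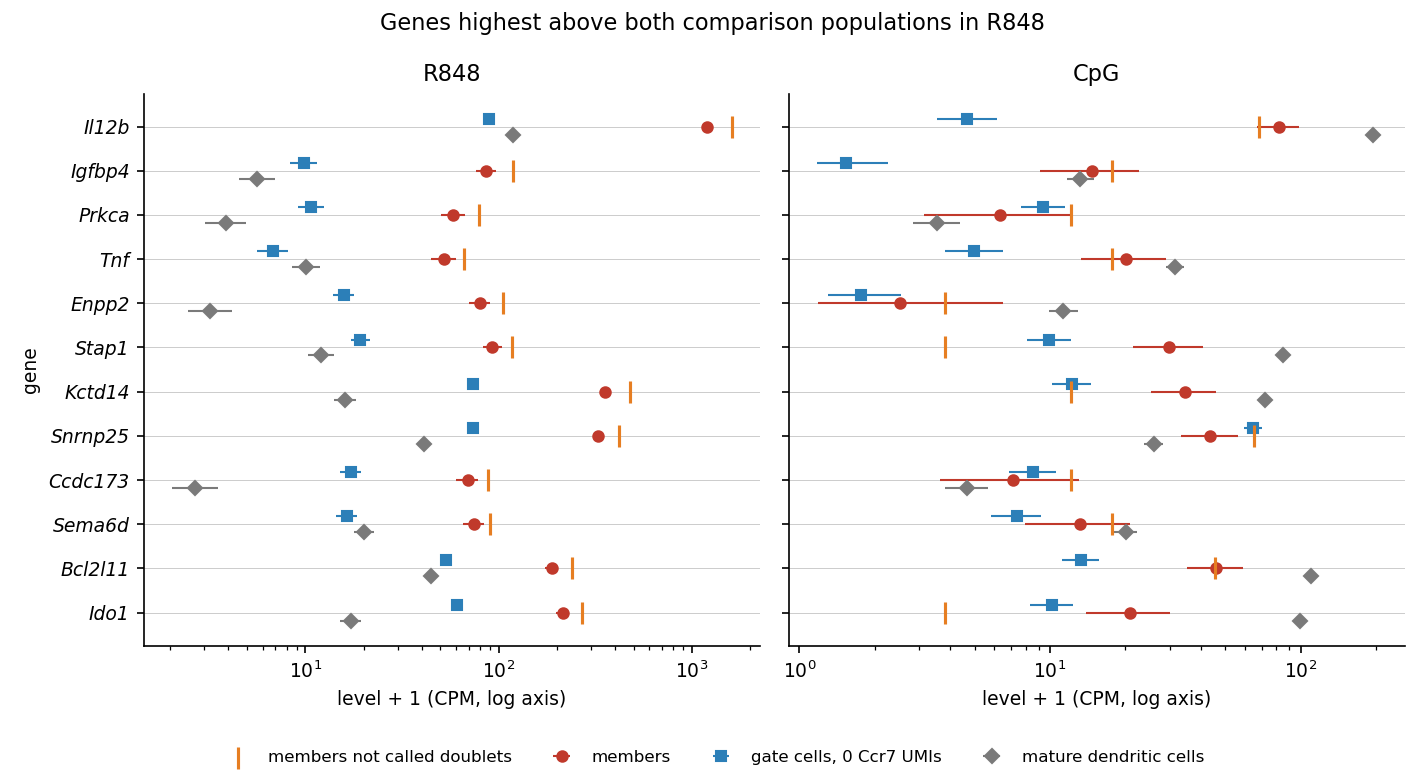
Levels plus 1 (CPM, log axis) of the 12 genes with the largest ratios over both populations in R848, in R848 and CpG, for members (circles), Ccr7-negative gate cells (squares) and mature dendritic cells (diamonds), with exact 95% counting intervals; orange bars are members without doublet calls. In R848 the members lie to the right of both populations for all 12 genes; in CpG Il12b stands at 80.8 CPM in members and 194 in mature dendritic cells.

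A narrower count took only genes at least 1.5-fold over the highest cluster of either population, with an interval leaving out 1. It held 22 of 6913 genes in R848 (0.318%) 0 of 6789 in CpG and 2 of 7210 in Control (0.0277%). Besides Igfbp4, Kctd14, Prkca, Enpp2, Snrnp25, Bcl2l11, Ccdc173 and Ido1, 3 genes are named here that were chosen after their values were seen. Kdr, which encodes a receptor of vascular endothelial growth factor and had the largest ratio of the 180 genes at 10.6, stood at 48.1 CPM in members, 1.01 in Ccr7-negative gate cells, 4.55 in mature dendritic cells and 27.5 in the highest cluster. Blnk, an adaptor below the B cell receptor, stood at 41.8, 8.41, 0.834 and 26.0 CPM. Ptgs2, which encodes the prostaglandin-forming enzyme COX-2, stood at 31.8 CPM in members against 11.5 and 5.99.

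Ido1 and Il4i1, which encode enzymes that break down tryptophan and aromatic amino acids, differed in the population they shared. Ido1 (chr8:24584136-24597009, minus strand) stood at 214 CPM in R848 members (198 to 230), 60.04 in Ccr7-negative gate cells and 16.2 in mature dendritic cells, a ratio of 3.56 to the higher (3.22 to 3.93). Its level was 268 CPM without doublet calls and 75.1 in called members. Il4i1 (chr7:44816387-44840809, plus strand) stood at 2375 CPM in members (2323 to 2428), 316 in Ccr7-negative gate cells and 1669 in mature dendritic cells. Il4i1 was thus higher than in Ccr7-negative gate cells, but its ratio of 1.42 to mature dendritic cells did not reach the threshold. Without doublet calls it stood at 3025 CPM.

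In CpG and Control members neither enzyme was above both populations. Ido1 stood at 19.8 CPM in CpG members, 9.16 in Ccr7-negative gate cells and 98.3 in mature dendritic cells, and in Control at 0, 10.7 and 5.24. Il4i1 stood at 648, 217 and 1885 CPM in CpG, and at 890.1, 350 and 1674 in Control. At least 1 Ido1 UMI was found in 67.2% of R848 members, 37.4% of Ccr7-negative gate cells, 6.75% of mature and 3.62% of resting dendritic cells; at 4000 UMIs per cell the shares were 44.5%, 18.2%, 4.93% and 1.98%.

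**Figure D3:**
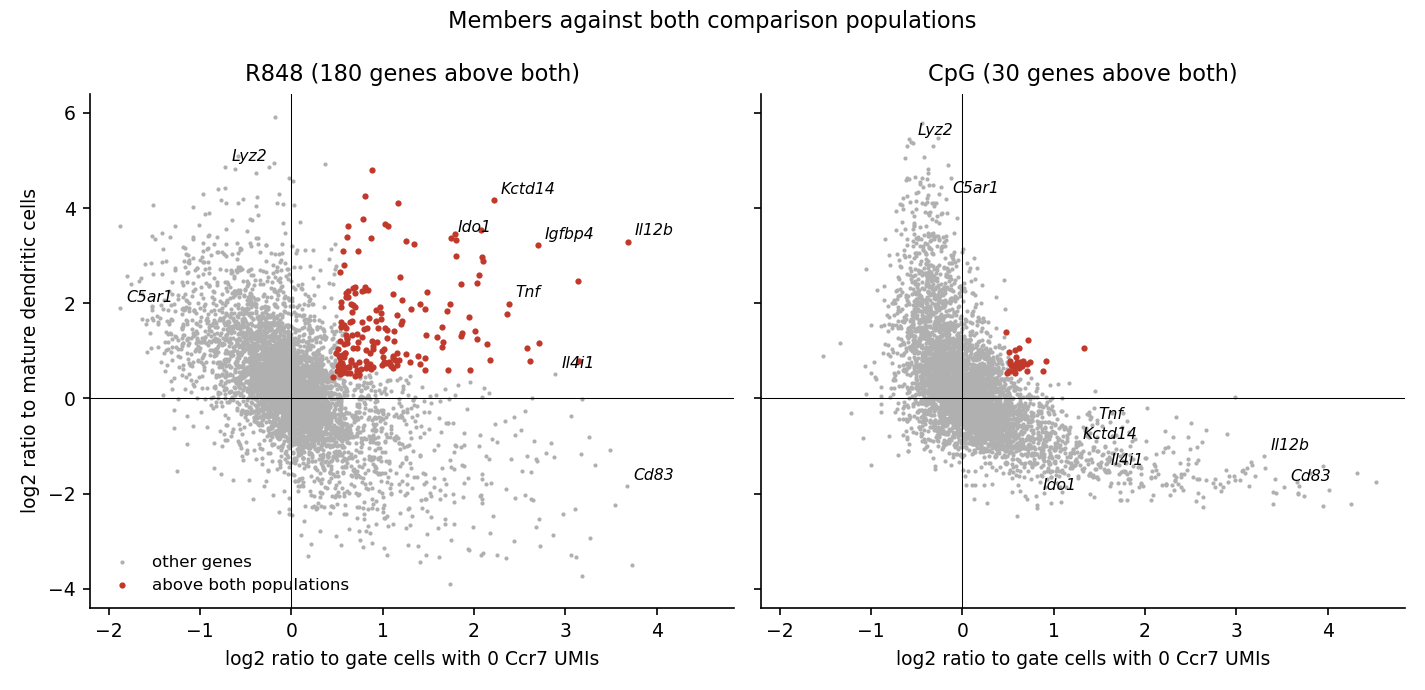
Each point is a compared gene, by its log2 ratio in members to Ccr7-negative gate cells (x) and to mature dendritic cells (y), with 5 CPM added to each level, in R848 and CpG. The genes above both populations (dark points) number 180 in R848 and 30 in CpG; Il12b lies at 3.69 and 3.30 in R848, and genes such as Cd83 lie to the lower right.

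The level of Il12b was greater in R848 gate cells with more Ccr7 UMIs, also below the threshold of the rule. Ccr7 chose the members, so these levels are a description. Il12b stood at 88.6 CPM in gate cells with 0 Ccr7 UMIs, 157 with 1, 231 with 2 and 438 with 3. It stood at 784 CPM in members with 4 to 7, 948 with 8 to 15 and 1743 with 16 or more. Just outside the rule, 39 cells with 3 Ccr7 UMIs stood at 438 CPM, and just inside it, 28 cells with 4 stood at 615. Without doublet calls the 3 classes of members stood at 925, 1346 and 2498 CPM. Il4i1 stood at 316 CPM at 0 Ccr7 UMIs, 1116 at 3 and 2869 at 16 or more, and Ccl5, a chemokine for T cells, at 3378, 5381 and 9718. Gate cells with more Ccr7 thus had more of all 3 transcripts.

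Phagocyte genes differed among themselves at high Ccr7. In the 64 members with 16 or more Ccr7 UMIs and no doublet call, C1qa stood at 2636 CPM and Lyz1 at 10192, both genes of the rule. Lyz2, a lysozyme gene outside the rule, stood at 16313 CPM, against 38542 in Ccr7-negative gate cells. Cx3cr1, the fractalkine receptor of monocyte-derived cells, stood at 5.99 CPM there, against 210.5 in Ccr7-negative gate cells. Mertk, a receptor for dying cells, stood at 59.9 CPM against 61.1. All 89 members with 16 or more Ccr7 UMIs, 25 of them called doublets, stood at 50.02 CPM for Cx3cr1 and 20355 for Lyz2. They stood at 3524 CPM for C1qa, 9518 for Lyz1 and 51.61 for Mertk. Over all members the differences of Cx3cr1 and Lyz2 from Ccr7-negative gate cells were thus smaller. CpG members gave no such order for Il12b, with 157 CPM in 21 cells with 4 to 7 Ccr7 UMIs, 12.2 in 27 with 8 to 15 and 95.1 in 40 with 16 or more.

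The gate sum had a threshold as well. In R848, 16 cells with at least 4 Ccr7 UMIs and a sum of 40 to 80 fell just outside it and stood at 2438 CPM for Il12b, with 6 called doublets. The 35 members with a sum of 80 to 120 stood at 1853 CPM, the 132 with 120 to 240 at 1044 and the 101 with 240 or more at 1206. Il12b was thus also found at the highest gate sums.

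**Figure D4:**
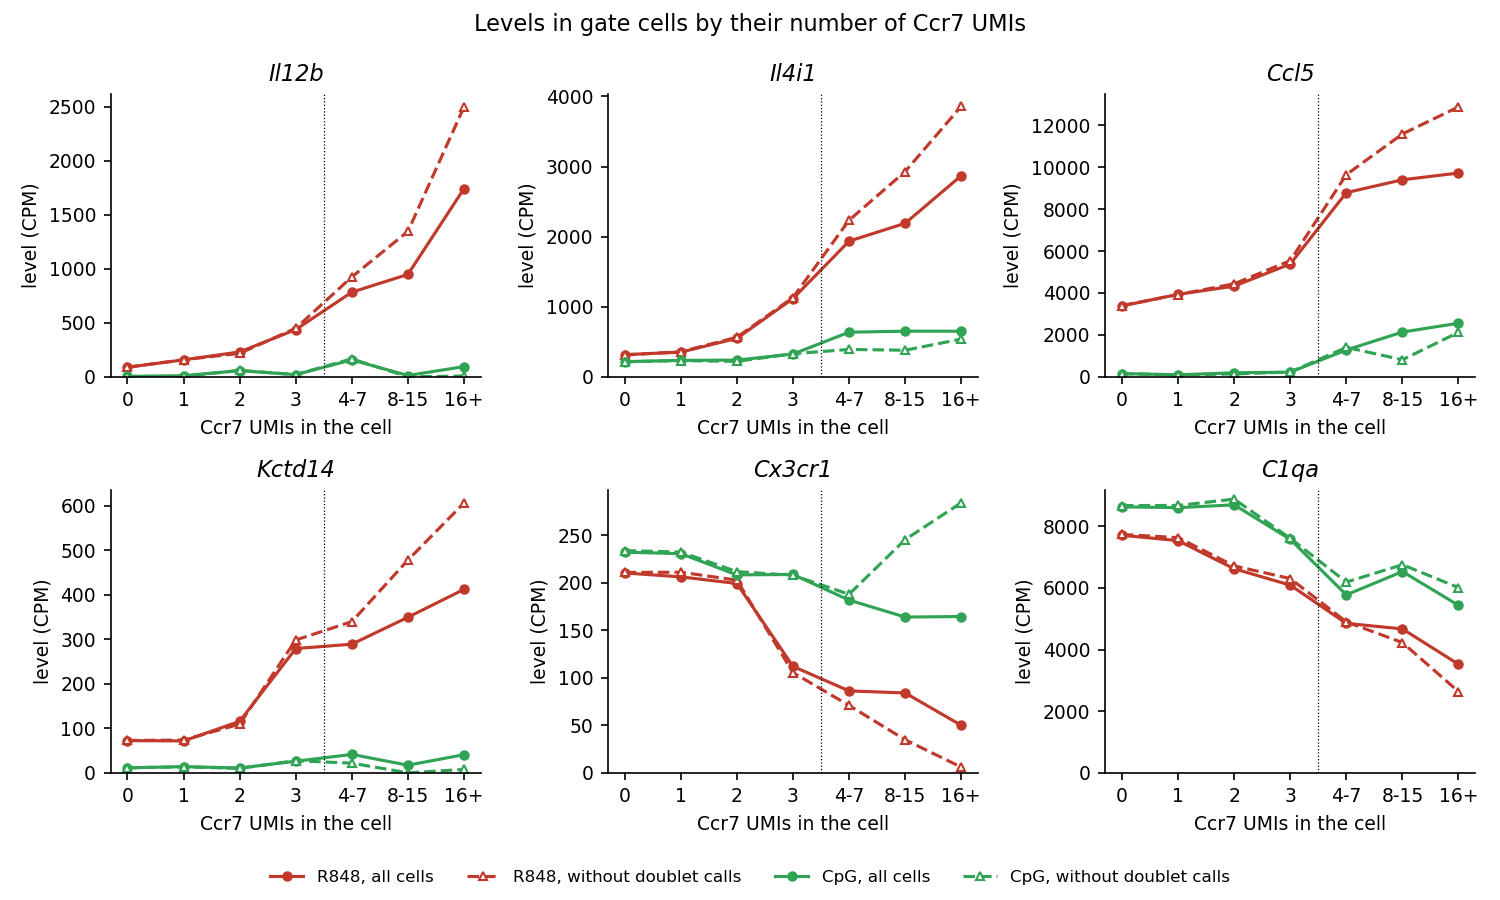
Levels (CPM) of 6 genes in gate cells of R848 (red) and CpG (green) by the cell's number of Ccr7 UMIs, for all cells (solid) and without doublet calls (dashed); the dotted line marks the threshold of 4. In R848, Il12b runs from 88.6 CPM at the left to 1743 at the right and Cx3cr1 starts at 210.5 CPM and is lower to the right, while in CpG Il12b stays between 3.66 and 157 CPM over all cells and between 0 and 166 without doublet calls.

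R848 members were not uniform. The 152 members with at least 4 Il12b UMIs stood at 514 CPM for Kctd14, 127 for Igfbp4 and 11613 for Ccl5, and 6 of them were called doublets. The 52 with 1 to 3 stood at 209, 66.3 and 7658 CPM, with 18 called. The 64 with none stood at 117, 8.21 and 5607 CPM, with 41 called. The split uses a measured gene, so these values are a description; doublet calls moved with it, and their part in it was not tested.

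Against Ccr7-negative gate cells, R848 members were higher for 353 of 5050 compared genes (6.99%) and lower for 276 (5.47%). Without doublet calls these were 408 (8.05%) and 439 (8.66%) of 5069, so that the lower genes then outnumbered the higher ones. Members were chosen by Ccr7 and some were called doublets, so the comparison describes genes that went with Ccr7 in lysozyme-high barcodes. The part of doublets in it was not tested. All gene lists were chosen with earlier results of these data known, and they are described by counts and medians only.

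Markers of mature dendritic cells were higher nearly throughout: 26 of 28 compared of 31 listed, 0 lower, with a median log2 ratio of 2.5 against −0.03 over all genes. Cd83, a surface protein of mature dendritic cells, stood at 234 CPM in members against 13.7 in Ccr7-negative gate cells and 850 in mature dendritic cells. Traf1, an adaptor of TNF receptors, stood at 492.5 against 75.5 and 1447 CPM, and Ccl22, a chemokine that attracts T cells, at 364 against 27.8 and 780. Apol7c, an apolipoprotein L gene, stood at 321.5 against 31.03 and 4329 CPM, but at 87.3 without doublet calls. The list includes Il12b, Ido1 and Il4i1. Without doublet calls 23 of 25 compared markers were higher.

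One ranking took genes of at least 50 CPM, leaving out the rule's genes and unnamed gene models. The 5 with the largest ratios over Ccr7-negative gate cells were Nudt17, Il6, Serpinb6b, Tbc1d4 and Cd200. Il6, an inflammatory cytokine gene, stood at 60.5 CPM against 2.36, with 33.2 in mature dendritic cells and 76.3 without doublet calls. Nudt17, a nudix hydrolase gene, stood at 95.4 CPM against 3.63, with 470 in mature dendritic cells and 83.5 without doublet calls. Cd200, an inhibitory ligand, stood at 69.9 CPM against 3.70, with 369 in mature dendritic cells. Serpinb6b, a protease inhibitor, and Tbc1d4, a regulator of vesicle traffic, stood at 143 and 75.1 CPM against 6.13 and 3.30. The last pair depended on the doublet calls: without them Serpinb6b stood at 30.4 CPM and Tbc1d4 at 16.4.

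Cytokine genes were higher for 6 of 13 compared of 22 listed, and lower for 2. Besides Il12b, Il6 and Tnf, the higher ones were Il27 (23.9 against 8.40 CPM) and Ebi3 (49.6 against 23.3), which encode the subunits of IL-27, and Il15 (35.4 against 12.0). Il1a (19.98 against 57.4) and Tnfsf13b, which encodes the B cell survival factor BAFF (10.9 against 22.1), were lower. Chemokine genes were higher for 3 of 10, Ccl5 (9341 against 3378), Ccl17 (503 against 110.2) and Ccl22, and lower for 2, Cxcl10 (171 against 448) and Ccl8 (18.5 against 62.5). Cxcl9 stood at 713 against 1022 CPM and was not called. The median log2 ratio was 0.43 for cytokines and −0.18 for chemokines, the latter turning to 0.23 with a minimum of 100 CPM.

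Immune-regulatory enzymes were higher for 6 of 10 compared of 14 listed and lower for 2, with a median log2 ratio of 1.16. The higher ones included Ido1, Il4i1, Ido2 (126 against 53.3 CPM), Ptgs2, Aldh1a2, which makes retinoic acid (33.0 against 3.23), and Arg2 (20.3 against 3.43). Aldh1a2 stood higher in mature dendritic cells than in members. Without doublet calls 5 of 9 compared enzymes were higher and 2 lower. Irg1, which makes itaconate, stood at 211 against 614 CPM and Gch1, the first enzyme of tetrahydrobiopterin synthesis, at 33.6 against 70.8, both lower. NF-kB pathway genes were higher for 6 of 15 and lower for 0, with a median of 0.77. Relb, a subunit of the non-canonical pathway, stood at 456 against 151 CPM, its upstream kinase gene Map3k14 at 49.3 against 12.0, and Nfkbiz, a nuclear IkB, at 162 against 46.3.

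Phagocyte genes were mostly at equal or lower levels in R848 members. Of 16 compared lysozyme-high markers outside the rule, 25 being listed in all, 0 were higher and 6 lower, with a median log2 ratio of −0.70. Cx3cr1 stood at 71.7 CPM against 210.5 and Csf1r, the receptor of colony-stimulating factor 1, at 137 against 373. Apoe stood at 12927 CPM against 19421 and Mertk at 49.6 against 61.1; neither was called. Genes of apoptotic cell clearance were lower for 3 of 6 and higher for 0. Among genes of at least 50 CPM, the 5 with the smallest ratios were C5ar1, Apoc4, Tgfbi, Cmklr1 and Pilra. C5ar1, the receptor of complement C5a, stood at 17.6 CPM against 77.9, and Tgfbi, a matrix protein, at 153.5 against 579. Without doublet calls C5ar1 stood at 5.06 CPM and Tgfbi at 55.2.

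Several lists showed little difference between R848 members and Ccr7-negative gate cells. Type I interferon-stimulated genes were higher for 1 of 33 and lower for 1, with a median log2 ratio of −0.13. MHC class I genes were higher or lower for 0 of 21, with a median of 0.18, and MHC class II genes higher for 1 of 11 and lower for 1. By the 1.5-fold rule, 2 of 33 interferon-stimulated genes (Mx1, Usp18) and 1 of 21 class I genes (Nlrc5) were above both populations. In both lists 0 were below both. Over all genes 3.30% were above both. Cd74, the invariant chain, stood at 21478 CPM in members, 14394 in Ccr7-negative gate cells and 20467 in mature dendritic cells. Toll-like receptor genes and adaptors were called for 0 of 6. Tlr7, the receptor of R848, stood at 31.8 CPM in R848 members, 51.2 in Ccr7-negative gate cells and 0.683 in mature dendritic cells. Tlr9 stood at 2.12, 1.68 and 0.759 CPM, too low to be compared.

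**Figure D5:**
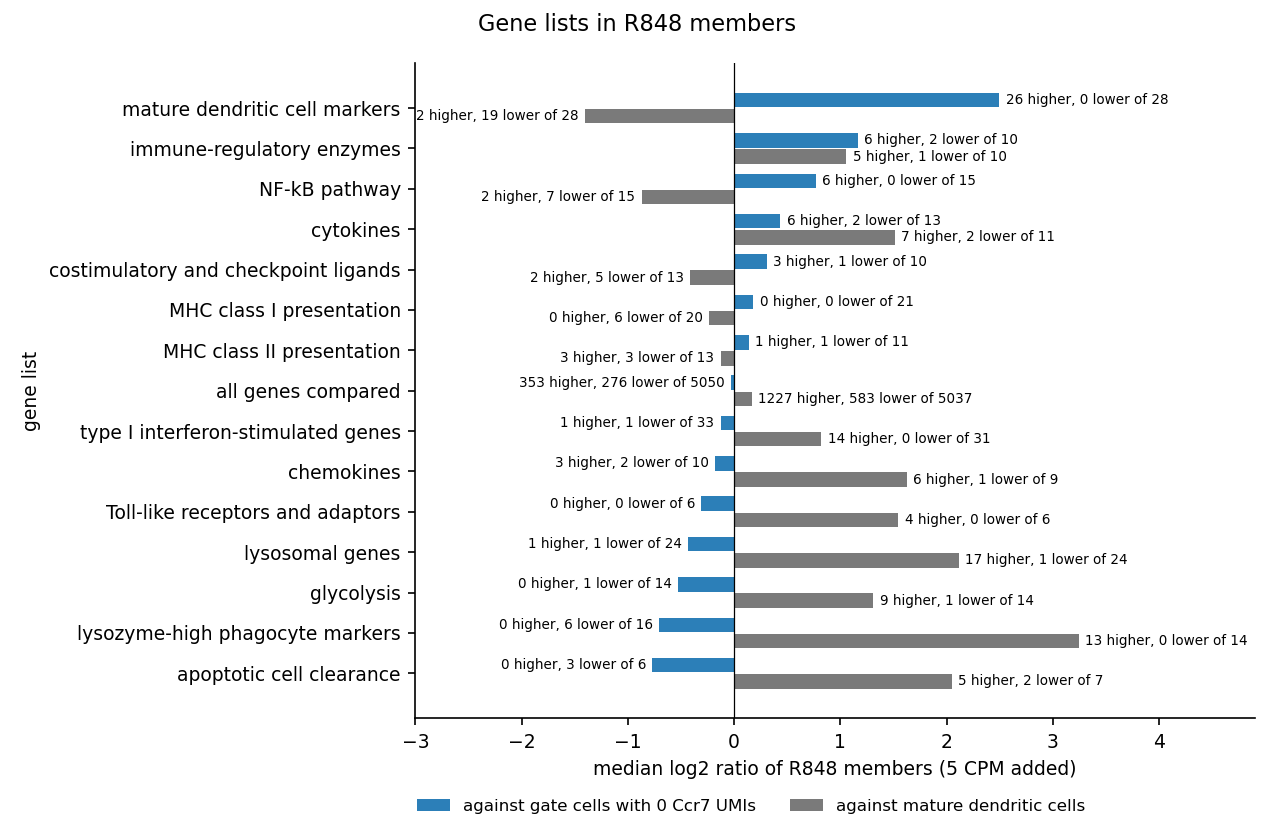
Median log2 ratio of R848 members (5 CPM added) for each gene list, against Ccr7-negative gate cells (blue) and mature dendritic cells (grey), with the number of genes called higher and lower of those compared. Mature dendritic cell markers lie at 2.5 and −1.40, lysozyme-high markers at −0.70 and 3.24, and immune-regulatory enzymes at 1.16 and 1.06.

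Against mature dendritic cells, R848 members were higher for 1227 of 5037 genes (24.4%) and lower for 583 (11.6%). Genes of phagocytes and lysosomes were among the higher ones. Lysozyme-high markers were higher for 13 of 14 compared, with a median log2 ratio of 3.24, and lysosomal genes for 17 of 24, with a median of 2.11. Lyz2 stood at 23330 CPM against 802 and Ctsd, the lysosomal protease cathepsin D, at 525 against 38.2. Among the genes with the largest ratios were Pla2g2d, a secreted phospholipase (2197 against 31.5 CPM), Slc1a2, a glutamate transporter (74.8 against 1.14), and Mmp14, a membrane metalloprotease (269 against 4.40). Lgmn, the asparaginyl endopeptidase, ran against its list, at 73.0 CPM in members, 32.4 in Ccr7-negative gate cells and 492 in mature dendritic cells.

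Interferon-stimulated genes were higher than in mature dendritic cells for 14 of 31 compared and lower for 0, with a median log2 ratio of 0.82 against 0.17 over all genes. Cytokines were higher for 7 of 11 and lower for 2, and chemokines higher for 6 of 9 and lower for 1. Mature dendritic cell markers were higher for 2 of 28, Il12b and Ido1, and lower for 19, with a median of −1.40. Serpinb6b, for example, stood at 143 CPM against 1679. NF-kB pathway genes were lower for 7 of 15 and higher for 2. Cd1d1, an antigen-presenting molecule for NKT cells, stood at 28.2 CPM against 493, and Clec12a, an inhibitory lectin receptor, at 1.82 against 51.9, both lower.

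Summed markers of other cell types lay above both populations for B-lineage cells, mostly through 1 gene, and for T and NK cells. Neutrophil markers did so only slightly, with an interval overlapping that of Ccr7-negative gate cells. The T and NK sum rests on 29 UMIs in members, and resting dendritic cells stood at 6.63 CPM for it. Markers of cDC1 summed to 820 CPM in members, 580 in Ccr7-negative gate cells and 963 in mature dendritic cells, and those of cDC2 to 47.5, 54.2 and 130, with Cd209a, Clec10a and Hpgd at 0 in members. T and NK cell markers summed to 8.78, 1.68 and 4.10 CPM, plasmacytoid dendritic cell markers to 107, 119 and 51.4, and neutrophil markers to 59.3, 54.7 and 5.39. B-lineage markers summed to 289, 165 and 31.9 CPM, of which Cd79b, a gene above both populations, gave 279 in members, with Pax5 at 0. The part of such cells in the results was not tested. Monocyte markers summed to 150.4, 146 and 1133 CPM, with Chil3 and F13a1 at 0 in members. Epithelial and stromal markers summed to 72.0, 108 and 37.4, with Krt8, Krt18, Krt20 and Col3a1 at 0.

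Cd4, which in Peyer's patches marks part of the lysozyme-expressing macrophages, was found in fewer members. At least 1 Cd4 UMI was present in 46 of 268 R848 members (17.2%) and in 407 of 1210 Ccr7-negative gate cells (33.6%). The 222 members without Cd4 stood at 1304 CPM for Il12b and 10642 for Apoe, with 44 doublet calls. The 46 members with Cd4 stood at 770 and 22730 CPM, with 21 doublet calls. Il12b was thus present on either side of this split.

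For most genes that differed between the comparison populations, CpG members had levels between them. The count that follows was added after the values were seen. Among 2352 genes that differed at least 2-fold between Ccr7-negative gate cells and mature dendritic cells in CpG, 2220 had a level in members between the 2 populations (94.4%), 103 above both (4.38%) and 29 below both (1.23%). In R848 these were 2319 of 2580 (89.9%), 215 (8.33%) and 46 (1.78%). Without doublet calls the shares between fell to 82.7% over 203 R848 members and to 70.0% over 22 CpG members. With 22 cells, more levels fall outside by counting error, so this last pair of shares is given side by side without a comparison.

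Against Ccr7-negative gate cells, CpG members were higher for 340 of 4951 genes (6.87%) and lower for 26 (0.525%). Mature dendritic cell markers were higher for 22 of 26, with a median log2 ratio of 2.57, and lysozyme-high markers called for 0 of 15. Without doublet calls, over 22 cells, 237 of 4986 genes were higher (4.75%) and 60 lower (1.2%). Against mature dendritic cells, CpG members were higher for 1033 of 5114 (20.2%) and lower for 606 (11.8%), the lower ones including 26 of 28 mature dendritic cell markers; without doublet calls 1320 of 5259 were higher (25.1%) and 870 lower (16.5%). Il12b stood at 80.8 CPM in CpG members, 3.66 in Ccr7-negative gate cells and 194 in mature dendritic cells, and at 67.1 without doublet calls. At least 4 Il12b UMIs were found in 4 of 88 CpG members (4.55%) and 2 of 19 Control members. In CpG, as in R848, 1 cluster of mature dendritic cells was rich in Il12b: 209 cells stood at 2422 CPM, with 690 CPM of Il6.

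The few genes above both populations in CpG included inflammatory chemokines. Ccl4 stood at 153 CPM in CpG members, 58.0 in Ccr7-negative gate cells and 70.8 in mature dendritic cells, and Cxcl9 at 360, 217 and 151; they were named after their values were seen. Without doublet calls 101 of 5517 genes were above both in CpG (1.83%), over 22 cells. The 19 Control members were higher than Ccr7-negative gate cells for 517 of 5288 genes (9.78%) and lower for 171 (3.23%). They were higher than mature dendritic cells for 764 of 5225 (14.6%) and lower for 253 (4.84%). In Control, Il12b stood at 110.0 CPM in members, 16.6 in Ccr7-negative gate cells and 487 in mature dendritic cells.

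Between the members of the 2 treated libraries, 225 of 5047 compared genes were higher in R848 (4.46%) and 261 lower (5.17%). Among genes of at least 50 CPM, the 5 largest ratios of R848 over CpG were those of Enpp2 (51.7, interval 14.2 to 429), Il12b (14.9, 12.3 to 18.2), Tmem158, Ido2 and Bcl2l15. Ido2 stood at 126 CPM against 9.90, Tmem158 at 66.0 against 4.57 and Bcl2l15 at 53.0 against 4.57. By the same limit, the 5 genes most in favour of CpG were Il22ra2, C5ar1, Aldh1a2, Ifi205 and Ltc4s. Il22ra2, the soluble decoy receptor of IL-22, stood at 1980.0 CPM in CpG members against 312 in R848 members, and at 2381 against 795 in Ccr7-negative gate cells of the same libraries. Aldh1a2 stood at 200.4 against 33.0 CPM in members and at 842 against 207 in mature dendritic cells. All 10 genes differed in the same direction between the libraries' Ccr7-negative gate cells. There Il12b stood at 88.6 CPM in R848 against 3.66 in CpG, Enpp2 at 14.8 against 0.754, Ido2 at 53.3 against 7.33, Tmem158 at 24.7 against 6.36 and Bcl2l15 at 17.9 against 4.31. These differences were thus not particular to members. Doublet calls, at 75.0% and 24.3% of members, differed along with them, and their part was not tested.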

How the data were processed

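The authors deposited, per library, a matrix of UMI counts over 27998 genes; Cell Ranger 2.0.0 and mm10 are given in the submitters' processing notes, and no other step is given in the sources used here. From these deposited counts, raw UMIs were summed per population and library. Levels carry exact Poisson intervals, ratios exact conditional binomial intervals and shares Clopper-Pearson intervals (95%, scipy 1.17.1). Log2 ratios have 5 CPM added. Cells are not replicates, so no p-value was computed. Doublets were scored with Scrublet in scanpy 1.11.5; its automatic threshold marked 3 CpG cells and had not worked there, so a fixed rate was used. Comparison populations were clustered with Leiden (2000 variable genes, 30 components, 15 neighbours, resolution 1). Free RNA was estimated at 2.49% of a cell's UMIs in R848, or 5.00 CPM of Il12b. Named genes were ranked by ratio among genes of at least 50 CPM and 20 UMIs in the higher population. The rule's genes and unnamed gene models such as 2610528A11Rik were left out. So were immunoglobulin, T cell receptor, haemoglobin, ribosomal and mitochondrial genes. The 12 largest ratios over both populations and the 5 largest in each other direction were taken, and the listed genes were added. The scripts were tested on simulated data. The members and the 24 lists were chosen with earlier results of these data known. Coordinates come from GENCODE on GRCm38, and promoters from RefSeq.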

Additional observations from a re-analysis of the deposited data

Results flagged for a closer look

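Among named and listed genes, 5 were called higher in members than in mature dendritic cells in R848 and lower in CpG. The values are log2 ratios. Il12b stood at 3.30 in R848 and −1.21 in CpG, and Ido1 at 3.37 and −2.06. Kctd14 stood at 4.17 and −0.98, Stap1 at 2.59 and −1.40, and Bcl2l11 at 1.98 and −1.19. Each value rests on 1 library, and the difference between the libraries was not tested. Doublet calls marked 24.3% of R848 members and 75.0% of CpG members, and their part in these values was not tested.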

How the results depend on the processing

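Signs of single genes were checked only in R848, for the genes named by their ratios and for Il12b, Ido1 and Il4i1. None of these that was called higher or lower changed sign under the alternatives run. Other genes were not checked. Without doublet calls the lower genes came to outnumber the higher ones against Ccr7-negative gate cells. No paired analysis was possible because each group is 1 library, and for the same reason no replicate could be left out. Of the counts and shares, 85 alternatives stayed near the main value and 41 moved. For the single genes checked these were 1015 and 185, and for list medians 434 and 54. Medians of chemokines, MHC class II genes and cDC1 markers changed sign under at least 1 alternative, and the median of all genes against mature dendritic cells went from 0.17 to −0.07 at 100 CPM. Without doublet calls the medians of monocyte markers against Ccr7-negative gate cells in R848 also changed sign (0.14 to −0.29), as did those of some CpG lists, such as interferon-stimulated genes (−0.12 to 0.07) and immune-regulatory enzymes (−0.34 to 0.02). Member shares of kept cells in Control, CpG and R848 were 0.660%, 4.34% and 7.93% at 2 or more Ccr7 UMIs, and 0.189%, 1.33% and 3.49% at 8 or more. A gate of 40 gave 0.660% in Control, and a gate of 160 gave 1.31% in CpG and 3.82% in R848. Without doublet calls the shares were 0.158%, 0.457% and 4.14%. In R848 with no minimum level, 969 genes were higher and 693 lower than in Ccr7-negative gate cells, 3242 and 1269 than in mature dendritic cells, 424 and 613 than in CpG members, and 418 were above both. With 100 CPM these counts were 107, 64, 323, 268, 63, 58 and 51. At 2 or more Ccr7 UMIs 73 genes were lower than in Ccr7-negative gate cells, 158 lower than in CpG members and 111 above both. Without doublet calls 439 were lower than in Ccr7-negative gate cells, and 386 higher and 613 lower than in CpG members. Against the highest cluster 22 were above both, and at 2-fold 67. In CpG the count above both was 48 in cells thinned to equal depth, 86 with no minimum, 3 at 100 CPM, 2 at 2 or more Ccr7 UMIs, 101 without doublet calls, 0 against the highest cluster and 1 at 2-fold. The fixed rate of doublet calls, and all alternatives for CpG members, for R848 against CpG members and for gene lists, were chosen after seeing the data. Depth limits Control most, with 19 cells.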
